A study of Mus musculus with 18 samples.

Results

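The vacuolar proton pump (V-ATPase) is described here through 10 mouse genes: Atp6v1a, Atp6v1b2, Atp6v1c1, Atp6v1d, Atp6v1e1, Atp6v1h, Atp6v0a1, Atp6v0c, Atp6v0d1 and Atp6ap1. They were taken by gene symbol, and all 10 were found among the 39017 gene identifiers and 199 of the 355320 exon bins of the deposited counts. An exon bin is a stretch of exon, numbered 5′ to 3′ within its gene, to which reads were counted. The group was chosen by a measured value: Atp6v1h bin 007 was among the bins whose usage differed when Ptbp1 was overexpressed. Values of the 10 genes in that comparison are therefore a description without a test. Whether the silencing values also bore on the choice is not recorded.

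The pump moves protons into lysosomes, endosomes and synaptic vesicles at the cost of ATP. Its V1 sector lies in the cytosol and splits ATP, its V0 sector crosses the membrane and carries the protons, and the pump is switched on and off by the joining and parting of the sectors. In neurons the acid interior it makes drives the loading of neurotransmitter into synaptic vesicles and the digestion of cargo in lysosomes. The product of Ptbp1, polypyrimidine tract binding protein, regulates the inclusion of many exons by binding the RNA. Its paralog Ptbp2 takes its place in neurons.

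RNA bound to ribosomes was isolated by translating ribosome affinity purification (TRAP) from 18 mice, 1 library per mouse. In the silencing experiment the groups were mice given an mCherry vector with a Ptbp1 shRNA (n = 4) or an mCherry vector with a scrambled shRNA (n = 5). In the overexpression experiment they were mice given a Ptbp1-mCherry vector (n = 5) or a control mCherry vector (n = 4). The series' design text states that both entorhinal cortices of a mouse were pooled, and its title names layer II neurons, whereas the tissue label of all 18 libraries reads hippocampus. The 1 Ptbp1 shRNA mouse and the 1 control vector mouse that the authors left out are not analysed here. Age, sex, the mouse line that carried the ribosome tag and the promoters of the vectors are missing from the labels used here. In RNA from many cells, fewer cells of a type and less RNA per cell cannot be told apart.

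Libraries held 34339355 to 46544178 gene counts in silencing and 18288627 to 39056655 in overexpression. Levels below are CPM, gene counts over the TMM-adjusted library size. Coverage was less even in silencing: of the 56285 bins averaging 50 or more counts over all libraries, 1.24% to 8.30% were at 0 in a silencing library, against 0.0213% to 0.0551% in an overexpression library. The highest shares belonged to Ptbp1 shRNA replicate 2 (8.30%) and scrambled shRNA replicate 5 (7.61%). The common biological coefficient of variation fitted by edgeR was 90.1% in silencing and 22.3% in overexpression. Ptbp1 itself had 6.57, 0.101, 0.588 and 13.1 CPM in the Ptbp1 shRNA libraries, against 3.38, 0.930, 6.72, 0.349 and 9.11 CPM in the scrambled libraries, so the knockdown was not seen in these counts (log2 fold change 0.31, SE 1.27, edgeR adjusted p = 0.961). With the Ptbp1 vector it had 136, 143, 158, 129 and 118 CPM, against 17.2, 13.5, 9.96 and 12.3 CPM with the control vector. Ptbp2 averaged 47.5 ± 6.51 CPM with the Ptbp1 vector and 109 ± 2.54 CPM with the control vector (SD, n = 5 and 4), a log2 change of -1.20 (SE 0.10, edgeR adjusted p = 7.81e-05).

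Bin 007 is exon 7 of the transcript Atp6v1h-201, which encodes subunit H, the V1 subunit known from yeast as necessary for ATP splitting by the joined pump. It lies at chr1:5101070-5101123 on the plus strand (mm10), within the coding sequence. The exon has 54 bases, or 18 codons, begins at a codon boundary and holds 0 in-frame stop codons. The transcript Atp6v1h-204 lacks exactly these 54 coding bases, with 12 coding exons in place of 13. The lines below show the junction with and without the exon, with 30 bases of the adjoining exons on each side, from GENCODE release M21. Capitals mark the exon.
Atp6v1h with exon 7: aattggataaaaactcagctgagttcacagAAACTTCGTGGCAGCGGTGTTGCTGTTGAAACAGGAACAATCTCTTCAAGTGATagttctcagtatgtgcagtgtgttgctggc
Atp6v1h without exon 7: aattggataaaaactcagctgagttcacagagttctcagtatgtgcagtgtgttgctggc
Reading on through the skipped junction keeps the frame, so the forms differ by the amino acids of the exon and not downstream of it.

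PTBP1 binds pyrimidine-rich RNA, for which TCTT is a textbook core motif. TCTT was searched on the sense strand only, as the RNA reads, and occurs 1 time in the exon. Of 1258 internal exons of 54 bases in the same annotation, 206 (16.38%) hold it. Pyrimidines make up 46.3% of the exon, against a median of 44.44% over those exons. The longer motif CTCTCT was searched in the same way and occurs 0 times in the exon. These matches describe the letters of the exon alone. The introns beside it were not searched.

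With the Ptbp1 vector, exon 7 of Atp6v1h was counted more often relative to the rest of the gene. Bin 007 had 28, 44, 38, 22 and 24 counts in the Ptbp1 overexpression libraries, against 0, 4, 4 and 8 in the control vector libraries. As a share of all Atp6v1h bin counts this was 0.504%, 1.07%, 1.09%, 0.677% and 0.746% with Ptbp1, against 0%, 0.132%, 0.165% and 0.225% with the control vector. Each of the 5 Ptbp1 libraries lay above each of the 4 control libraries. The library at 0 had 3009 counts in the gene, which allows a share of up to 0.0997% (3 counts, counting error only). The 95% Wilson intervals of the other single libraries ran over 0.349% to 1.49% with Ptbp1 and 0.0514% to 0.443% with the control vector. Mean usage was 0.817% ± 0.255 with Ptbp1 and 0.130% ± 0.095 with the control vector (SD, n = 5 and 4). The difference was 0.687 percentage points (SE 0.124) and the ratio of means 6.27.

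**Figure D1:**
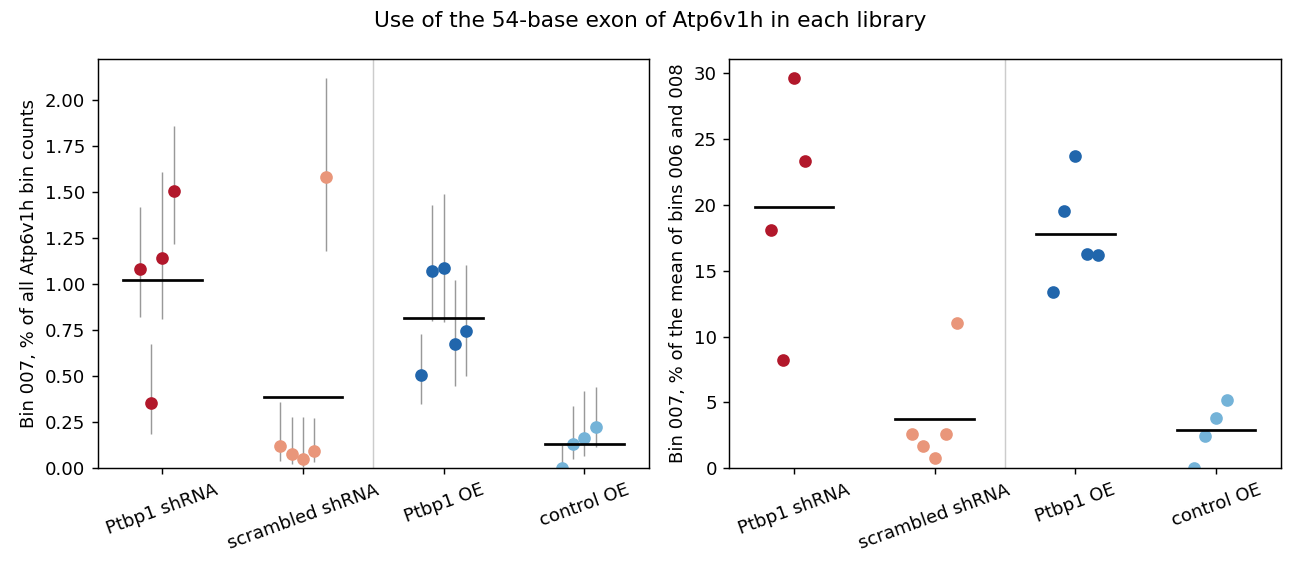
Usage of Atp6v1h bin 007 in each library, as a percent of all bin counts of the gene with 95% Wilson intervals (left) and as a percent of the mean count of both adjoining bins (right); points are libraries and black lines group means. The 5 Ptbp1 overexpression (OE) libraries lie above the 4 control vector (control OE) libraries in both panels, and scrambled shRNA replicate 5, at 1.59% on the left, lies apart from the other scrambled libraries.

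Set against the adjoining exons only, bin 007 had 13.4% to 23.7% of their mean count in the Ptbp1 overexpression libraries and 0% to 5.20% in the control vector libraries. The group means were 17.8% ± 3.94 with Ptbp1 and 2.87% ± 2.22 with the control vector (SD, n = 5 and 4). In every library of both groups bin 007, of 54 bases, thus stayed well under the count of its neighbours, of 105 and 98 bases. Usage of the adjoining bin 006 averaged 5.14% ± 0.848 with Ptbp1 and 4.86% ± 0.931 with the control vector. For bin 008 the means were 3.91% ± 0.441 with Ptbp1 and 3.99% ± 0.539 with the control vector. Both neighbours differed by less than the spread between libraries.

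Over the whole table, 40 of 117580 exon bins tested passed an adjusted p of 0.05 in overexpression (edgeR's diffSpliceDGE, 0.034% of bins), and 27 of them were used more with Ptbp1 (0.023%). Bin 007 of Atp6v1h stood at place 20 by p among those 40, with a log2 relative usage of 1.79, which ran from 1.51 to 2.90 over its 11 alternatives. It was the 1 bin called among the 166 tested bins of the 10 genes. This call chose the group, so the call and its place are a description. The bin passed the filter on low counts through the Ptbp1 vector libraries. The next bin of the 10 genes by p was Atp6v0d1 bin 010, with a log2 relative usage of 0.17. Nothing lay near the threshold on either side, since the next values were 0.14 for Atp6v1a bin 010, 0.11 for Atp6v1c1 bin 009 and 0.12 for Atp6v1e1 bin 008. Outside Atp6v1h, the bin of each gene with the smallest p ranged from -0.37 (Atp6v0c bin 009) to 0.17 (Atp6v0a1 bin 028). The other named bins lay within that range, at 0.08 for Atp6v1b2 bin 025, -0.07 for Atp6v1d bin 007 and 0.14 for Atp6ap1 bin 034.

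**Figure D2:**
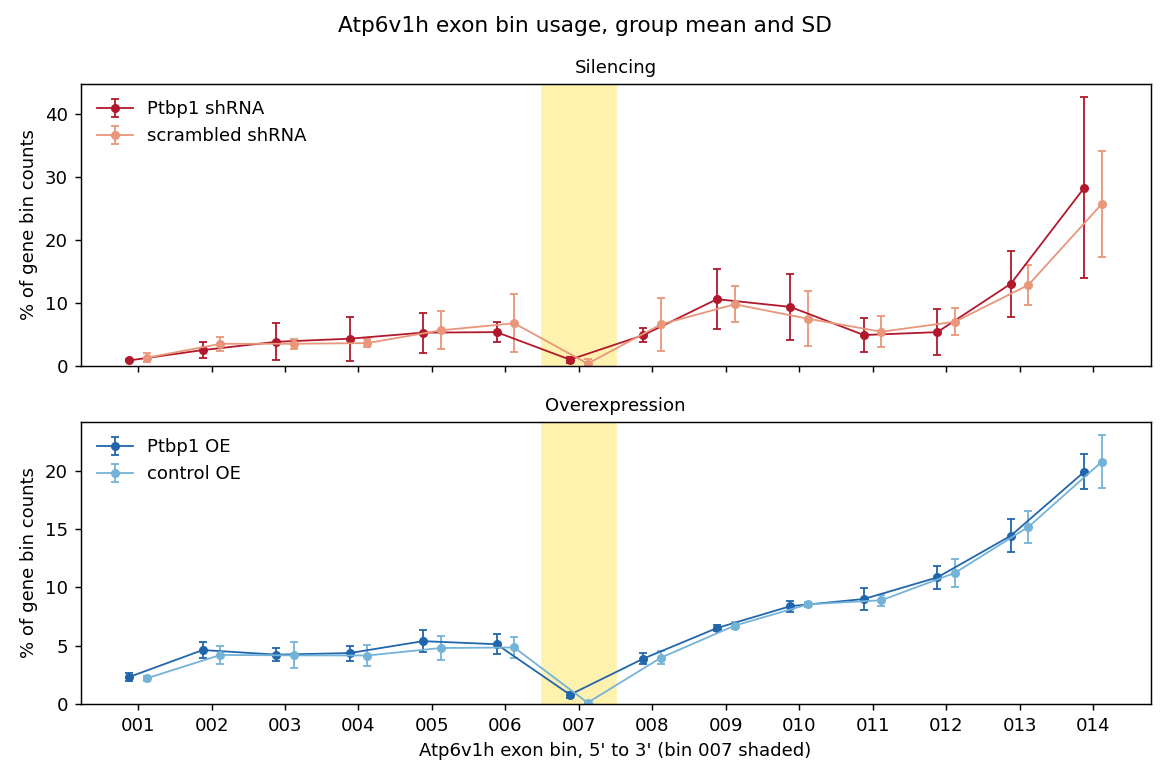
Mean usage of the 14 exon bins of Atp6v1h, in percent of the gene's bin counts, with SD as bars; upper panel Ptbp1 shRNA (n = 4) and scrambled shRNA (n = 5), lower panel Ptbp1 overexpression (OE, n = 5) and control vector (control OE, n = 4). Bin 007, shaded, is the least used internal bin in all groups, and the last bin is the most used.

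The Atp6v1h bins also showed how reads lay along the transcript. The last bin, 014, took 19.9% ± 1.49 of the gene's counts with Ptbp1 and 20.8% ± 2.27 with the control vector. In silencing it took 28.3% ± 14.4 in Ptbp1 shRNA libraries and 25.7% ± 8.48 in scrambled libraries. The first bin, 001, took 2.34% ± 0.330 with Ptbp1 and 2.22% ± 0.214 with the control vector, and 0.899% ± 0.158 in Ptbp1 shRNA against 1.33% ± 0.750 in scrambled libraries. Coverage along the gene was thus more variable between silencing libraries than between overexpression libraries.

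Silencing asks whether the same exon differs when the shRNA against Ptbp1 is given. Bin 007 had 50, 9, 32 and 84 counts in the Ptbp1 shRNA libraries, against 3, 2, 1, 3 and 44 in the scrambled libraries. Usage was 1.08%, 0.355%, 1.14% and 1.5% with the Ptbp1 shRNA, against 0.122%, 0.0771%, 0.0489%, 0.0939% and 1.59% with the scrambled shRNA. All 4 Ptbp1 shRNA libraries lay above 4 of the 5 scrambled libraries, and scrambled replicate 5 lay above all of them, so the groups overlapped. Mean usage was 1.02% ± 0.482 with the Ptbp1 shRNA and 0.385% ± 0.671 with the scrambled shRNA (SD, n = 4 and 5). The difference of 0.636 percentage points (SE 0.385) did not pass an exact two-sided permutation test over the 126 splits (p = 0.206, smallest possible 0.0159).

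The outcome depended on scrambled replicate 5 and on the denominator. Without that library the difference was 0.936 points and the exact permutation p 0.0286, the smallest that 4 against 4 libraries allow. Without that library and Ptbp1 shRNA replicate 2, the least evenly covered pair, it was 1.16 points (exact permutation p = 0.0571, the smallest that 3 against 4 libraries allow). Scrambled replicate 5 was the only scrambled library to overlap the Ptbp1 shRNA libraries, so both smallest p-values follow from leaving it out. Set against the adjoining bins, usage was 18.1%, 8.18%, 29.6% and 23.3% with the Ptbp1 shRNA, against 2.61%, 1.67%, 0.787%, 2.56% and 11% with the scrambled shRNA. The means were 19.8% ± 9.07 with the Ptbp1 shRNA and 3.73% ± 4.13 with the scrambled shRNA (n = 4 and 5, exact permutation p = 0.0317). On the log2 scale of usage with a pseudocount of 0.5 counts the difference was 2.37 (exact permutation p = 0.0794). The groups overlapped against the adjoining bins too, since Ptbp1 shRNA replicate 2 lay below scrambled replicate 5.

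Scrambled replicate 5 had 408 and 392 counts in bins 006 and 008, against 105 to 138 in those bins of the other scrambled libraries, so its counts were high on this stretch of the gene. It also had the highest Ptbp1 level of the scrambled libraries, 9.11 CPM. The scrambled library with the next highest Ptbp1, replicate 3 at 6.72 CPM, had the lowest bin 007 usage, 0.0489%. Scrambled replicates 1, 2 and 4 had 3.38, 0.930 and 0.349 CPM of Ptbp1, beside usage of 0.122%, 0.0771% and 0.0939%. Ptbp1 shRNA replicates 1 to 4 had 6.57, 0.101, 0.588 and 13.1 CPM of Ptbp1, beside usage of 1.08%, 0.355%, 1.14% and 1.5%. The part of uneven coverage or of Ptbp1 level in these values was not tested. With diffSpliceDGE, which fits all bins together, the log2 relative usage of bin 007 in silencing was 0.82 (adjusted p = 1). Over its 11 alternatives it ran from 0.61 to 2.62, the highest without the least evenly covered pair, with an adjusted p of 1 in each. It could not be tested without scrambled replicate 5, since the bin then missed the filter on low counts.

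In that fit 1 of 83164 bins was called in silencing (0.0012%), and 1630 bins (1.96%) had an unadjusted p under 0.05. Of the 155 bins of the 10 genes that were tested, 0 were called and 0 had an unadjusted p under 0.05, against those shares of all bins. The bin with the smallest p was Atp6ap1 bin 005, at 0.034%, 0.041%, 0.115% and 0% of the gene's bin counts with the Ptbp1 shRNA, against 0.533%, 0.101%, 0.334%, 0.349% and 0.222% with the scrambled shRNA. Its log2 relative usage was -1.95 (diffSpliceDGE adjusted p = 1), and the groups overlapped at 1 library each. Values of the other genes' leading bins were -0.80 for Atp6v1a bin 024, -0.66 for Atp6v0a1 bin 039, -0.62 for Atp6v1e1 bin 004 and 0.38 for Atp6v1c1 bin 009. They were 0.28 for Atp6v1b2 bin 025, 0.28 for Atp6v1d bin 001, 0.17 for Atp6v0c bin 011 and -0.14 for Atp6v0d1 bin 002, each with a diffSpliceDGE adjusted p of 1.

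Another short coding exon of a pump gene, in a V0 gene, is shown for comparison and was chosen after its values were seen. Bin 034 of Atp6v0a1, the neuronal form of the membrane subunit a that contacts the V1 sector, lies at chr11:101049459-101049476 on the plus strand (mm10) and holds 18 bases, or 6 codons. Capitals mark it within Atp6v0a1-201, with 30 bases on each side.
Atp6v0a1 with bin 034: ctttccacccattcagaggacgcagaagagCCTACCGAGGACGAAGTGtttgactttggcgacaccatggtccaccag
Its usage was 0.361% ± 0.25 with the Ptbp1 shRNA and 0.374% ± 0.559 with the scrambled shRNA (SD, n = 4 and 5). It was 1.04% ± 0.259 with the Ptbp1 vector and 0.888% ± 0.234 with the control vector (SD, n = 5 and 4). In both experiments the means differed by less than the spread between libraries. Its longer coding neighbours took 1.82% (bin 032, 108 bases) and 1.95% (bin 036, 118 bases) with the Ptbp1 vector, so unlike exon 7 of Atp6v1h it was not low for its length. TCTT occurs 0 times in it.

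At the gene level, none of the 10 pump genes passed the test in silencing, and their levels with the Ptbp1 vector were close to those with the control vector. In silencing 0 of 14656 genes were called at an adjusted p of 0.05 by quasi-likelihood in edgeR (0%), and 1639 (11.2%) had an unadjusted p under 0.05. Of the 10 pump genes 7 had a positive log2 fold change and 3 a negative one, with a median of 0.23, against a median of 0.03 over all genes and 51.2% of all genes positive. Adjusted p-values ran from 0.361 to 0.989, and 1 gene had an unadjusted p under 0.05. In overexpression 7 of 16480 genes were called (0.0425%), and 788 (4.78%) had an unadjusted p under 0.05. The 10 genes ranged from -0.18 to 0.09 there, 2 positive and 8 negative, with a median of -0.02. Only Atp6v1h, Atp6v0d1 and Atp6ap1 kept their sign in overexpression whichever 1 library was left out. For none of the 10 genes did the libraries of both groups lie apart in either experiment, against 4.84% of all genes in silencing and 1.81% in overexpression.

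**Figure D3:**
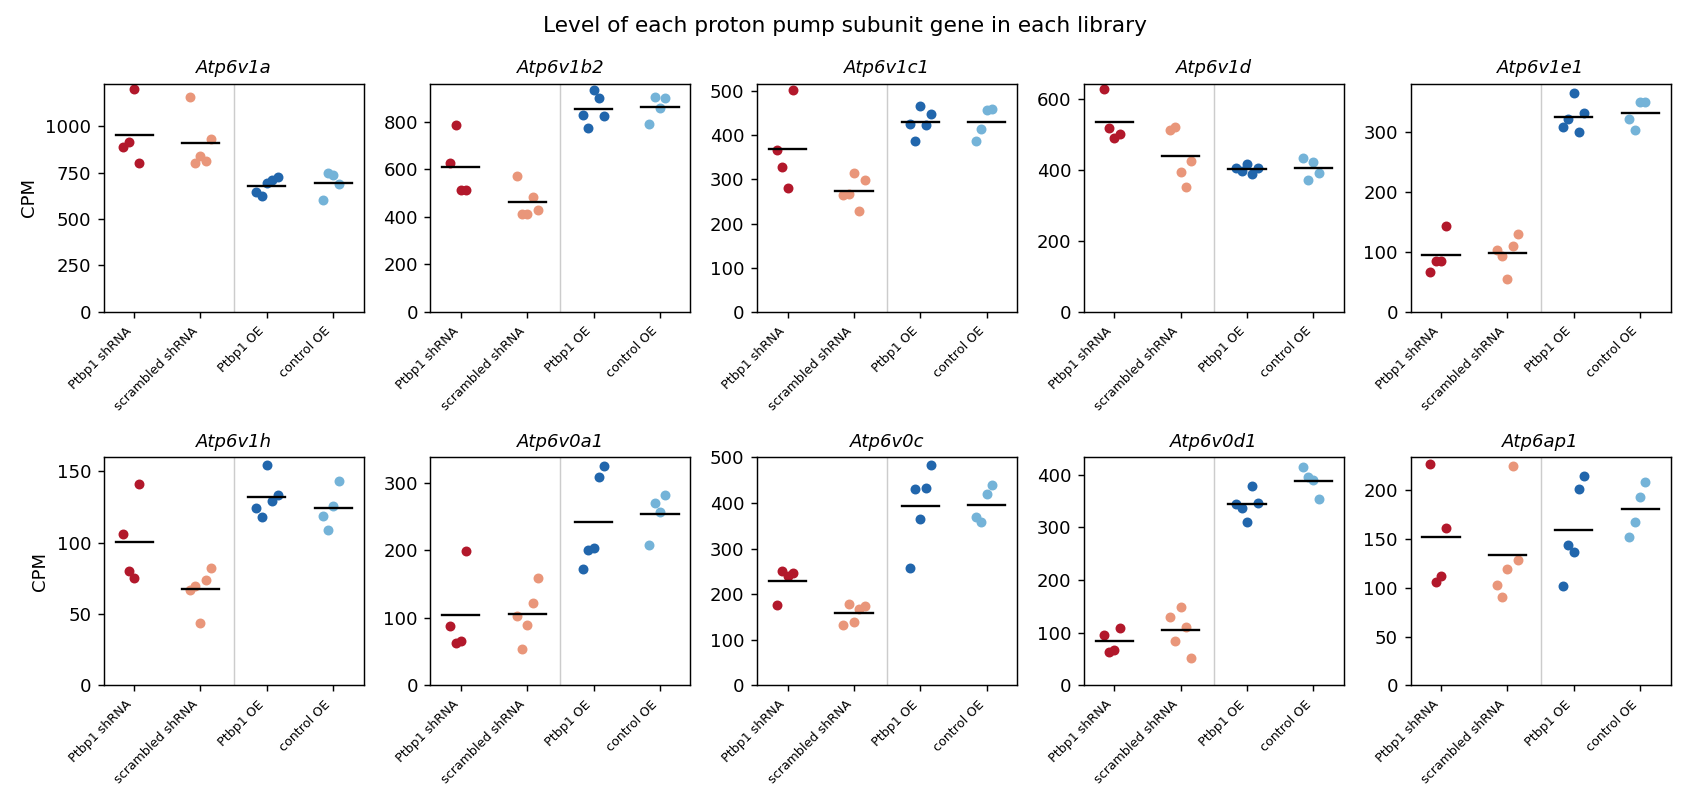
CPM of the 10 pump genes in each library, Ptbp1 shRNA and scrambled shRNA left of the grey line, Ptbp1 overexpression (OE) and control vector (control OE) right of it; points are libraries and black lines group means. Groups overlap within each experiment for every gene, and silencing libraries scatter more widely than overexpression libraries.

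Among the V1 genes, Atp6v1a encodes the catalytic subunit A. It had 891, 916, 1200 and 801 CPM with the Ptbp1 shRNA, against 1156, 800.1, 840.1, 813 and 933 CPM with the scrambled shRNA. The ranges nearly coincided (log2 fold change 0.07, 95% interval -0.34 to 0.47). Atp6v1b2 encodes the brain form of subunit B, which shares the nucleotide sites with A. It had 626, 787, 513 and 514 CPM with the Ptbp1 shRNA, against 574, 413, 412, 485 and 430.1 CPM with the scrambled shRNA. Only scrambled replicate 1 reached into the Ptbp1 shRNA range (log2 fold change 0.40, 95% interval -0.03 to 0.82, edgeR adjusted p = 0.482).

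Atp6v1c1 encodes subunit C, which ties the sectors together and leaves when they part. Its level was 368, 328, 281 and 504 CPM with the Ptbp1 shRNA, against 265, 268, 316, 228 and 298 CPM with the scrambled shRNA. The groups overlapped between 281 and 316 CPM (log2 fold change 0.43, 95% interval -0.03 to 0.89, edgeR adjusted p = 0.482). Atp6v1d encodes subunit D of the central rotor, and Atp6v1e1 subunit E of the outer stalks. Atp6v1d averaged 535 ± 64.7 CPM with the Ptbp1 shRNA and 441 ± 74.3 CPM with the scrambled shRNA (SD, n = 4 and 5), a log2 difference of 0.28 (SE 0.19, edgeR adjusted p = 0.644). Atp6v1e1 averaged 94.8 ± 33.5 CPM with the Ptbp1 shRNA and 98.5 ± 28.2 CPM with the scrambled shRNA.

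The gene level of Atp6v1h itself was 106, 80.1, 75.5 and 141 CPM with the Ptbp1 shRNA, against 67.0, 69.3, 43.9, 73.9 and 82.4 CPM with the scrambled shRNA. Scrambled replicate 5, again the highest of its group, lay above Ptbp1 shRNA replicates 2 and 3. The log2 fold change of 0.58 was the largest of the 10 genes (SE 0.29, 95% interval -0.04 to 1.21, edgeR adjusted p = 0.485). With the Ptbp1 vector it had 125, 118, 154, 129 and 133 CPM, against 119, 109, 126 and 143 CPM with the control vector. These ranges overlapped over most of their width (log2 difference 0.09, 95% interval -0.13 to 0.30). The higher share of exon 7 with the Ptbp1 vector thus stood beside a gene level that differed by less than the spread between libraries.

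Among the V0 genes, Atp6v0c encodes the proteolipid subunit c of the turning ring, Atp6v0d1 the subunit d that couples ring and rotor, and Atp6v0a1 the subunit a named above. Atp6v0c had 176, 252, 241 and 245 CPM with the Ptbp1 shRNA, against 131, 178, 140 and 167 CPM in scrambled replicates 1 to 4 and 174 CPM in scrambled replicate 5. Ptbp1 shRNA replicate 1 lay just below the highest scrambled library, and the other 3 lay above all scrambled libraries. This was the gene of the 10 with the smallest p in silencing (log2 fold change 0.53, SE 0.21, unadjusted p = 0.0247, edgeR adjusted p = 0.361). Adjusted p-values over its 15 alternatives ran from 0.0497 to 0.533, the lowest with all 18 libraries sharing 1 spread. Processed pseudogenes of Atp6v0c exist in the mouse genome, so reads from near-identical copies may be split between them.

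Atp6v0d1 had 95.3, 63.9, 68.0 and 109 CPM with the Ptbp1 shRNA, against 130, 83.5, 149, 111 and 51.3 CPM with the scrambled shRNA. Its groups overlapped over nearly the whole range (log2 fold change -0.32, 95% interval -1.04 to 0.39, edgeR adjusted p = 0.792). With the Ptbp1 vector it had 345, 336, 311, 379 and 347 CPM, against 415, 395, 390 and 355 CPM with the control vector. One Ptbp1 library, replicate 4, lay above the lowest control library. The log2 difference of -0.18 (95% interval -0.35 to -0.01) was the lowest of the 10 genes in overexpression and is given as a description. That this interval leaves out 0 is not a test here, since the overexpression comparison chose the group. Over all genes, 4.78% had an unadjusted edgeR p under 0.05 in overexpression.

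Atp6v0a1 averaged 104 ± 64.7 CPM with the Ptbp1 shRNA and 106 ± 38.9 CPM with the scrambled shRNA (SD, n = 4 and 5). Atp6ap1 encodes the accessory glycoprotein Ac45, which takes part in pump assembly and sorting. It had 227, 106, 112 and 161 CPM with the Ptbp1 shRNA, against 103, 90.4, 120, 225 and 128 CPM with the scrambled shRNA. A single high library in each group set the upper end of both ranges (log2 fold change 0.18, 95% interval -0.51 to 0.88).

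Within the Ptbp1 vector group Atp6ap1, Atp6v0a1 and Atp6v0c varied most. Atp6ap1 had 102, 144, 137, 201 and 215 CPM in Ptbp1 replicates 1 to 5, against 152, 168, 193 and 208 CPM with the control vector. Atp6v0a1 had 172, 200.2, 204, 308 and 324 CPM in the same Ptbp1 libraries, against 207, 270, 257 and 282 CPM with the control vector. Atp6v0c had 258, 430.3, 364, 432 and 483 CPM with Ptbp1, against 369, 358, 419 and 439 CPM with the control vector. Ptbp1 replicate 1 was the lowest and replicate 5 the highest of its group for all 3 genes. By comparison Atp6v1d kept between 390 and 417 CPM with the Ptbp1 vector, against 372 to 434 CPM with the control vector. Over the 10 genes and Ptbp1 libraries the coefficient of variation ran from 2.52% (Atp6v1d) to 29.6% (Atp6ap1), against 6.09% to 14% in the control vector group. It ran from 12.1% to 62.3% in the Ptbp1 shRNA group, against 12.3% to 40.0% in the scrambled group.

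The remaining V1 genes were near their control level in overexpression. Atp6v1a averaged 679 ± 43.6 CPM with the Ptbp1 vector and 694 ± 66.5 CPM with the control vector (SD, n = 5 and 4). Atp6v1b2 averaged 853 ± 65.1 CPM with the Ptbp1 vector and 865 ± 52.6 CPM with the control vector, and Atp6v1c1 430.2 ± 29.8 CPM with the Ptbp1 vector and 429.8 ± 35.4 CPM with the control vector. For Atp6v1e1 the means were 326 ± 25.6 CPM with the Ptbp1 vector and 332 ± 23.6 CPM with the control vector. The 95% intervals of these 4 genes and Atp6v1d reached no further than a log2 difference of -0.21 or 0.17.

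**Figure D4:**
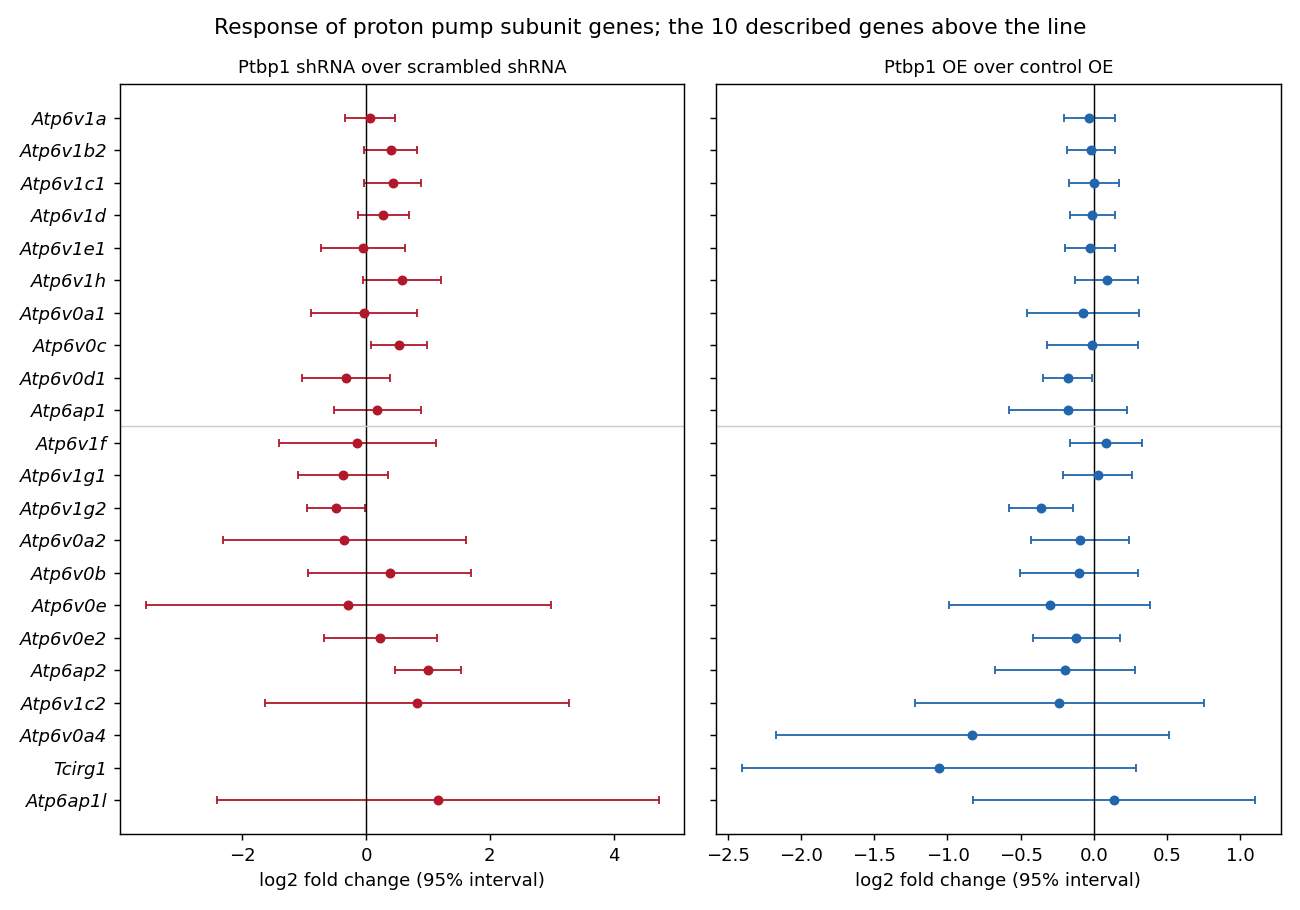
Log2 fold changes of the 10 pump genes (above the grey line) and of the other subunit genes with enough counts (below it), Ptbp1 shRNA over scrambled shRNA on the left and Ptbp1 overexpression (OE) over control vector (control OE) on the right; bars are 95% intervals from edgeR, and the panels have different x scales. The intervals of the 10 genes are wider in silencing, and the values in overexpression lie between -0.18 and 0.09.

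Whether the responses to silencing and to overexpression differ was fitted over all 18 libraries, where 40 of 17779 genes were called (0.225%) and 2593 (14.6%) had an unadjusted p under 0.05. This fit has 1 spread for both experiments, although the common coefficient of variation was 90.1% in silencing and 22.3% in overexpression. With that shared spread 1775 genes were called in silencing, in place of 0, so the 40 calls depend on it. The difference uses the overexpression comparison, so the values of the 10 genes are a description. The silencing response minus the overexpression response ranged from -0.16 for Atp6v0d1 to 0.54 for Atp6v0c on the log2 scale, with a median of 0.32 against 0.003 for all genes. It was positive for 8 of the 10 genes, and 0 of them were called.

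Levels per length are in RPKM (CPM per kilobase of exon). The length counts all annotated exon bases, including bins with almost no reads, which lowers RPKM. With the Ptbp1 vector, bin 007 of Atp6v0c, of 1107 bases, held 0.331% of its gene's bin counts. Bin 021 of Atp6v1b2, of 1404 bases, held 0.0117%. The order below thus holds for this length only. Atp6v1e1 had the highest RPKM of the 10 in overexpression, at 248 ± 19.5 with the Ptbp1 vector and 253 ± 18 with the control vector. Atp6v0d1, which followed Atp6v1e1 in the control group but came after Atp6v1c1 with the Ptbp1 vector, had 192 ± 13.6 RPKM with the Ptbp1 vector and 217 ± 13.9 RPKM with the control vector. Atp6v1c1 had 208 ± 14.4 RPKM with the Ptbp1 vector and 208 ± 17.1 RPKM with the control vector. These 2 neighbours did not differ beyond their spread in the control group. Atp6v1b2 came next at 161 ± 12.3 RPKM with the Ptbp1 vector and 163 ± 9.92 RPKM with the control vector. Atp6v0c, Atp6v1a and Atp6v1d, at 110 to 116 RPKM with the Ptbp1 vector and 111 to 117 RPKM with the control vector, lay within each other's spread. Atp6v1h had 64.3 ± 6.67 RPKM with the Ptbp1 vector and 60.5 ± 7.11 RPKM with the control vector, and in the control group lay within the spread of Atp6ap1 at 59.5 ± 8.35 RPKM. The lowest was Atp6v0a1, at 36.9 ± 10.6 RPKM with the Ptbp1 vector and 38.7 ± 4.99 RPKM with the control vector.

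In silencing the order of levels was another. Atp6v1c1 led the 10 at 179 ± 46.2 RPKM with the Ptbp1 shRNA, and Atp6v1a at 150 ± 24.5 RPKM with the scrambled shRNA. Atp6v1e1, first in overexpression, had 72.2 ± 25.6 RPKM with the Ptbp1 shRNA and 75.1 ± 21.5 RPKM with the scrambled shRNA. Atp6v0d1 had 46.8 ± 12 RPKM with the Ptbp1 shRNA and 58.6 ± 21.6 RPKM with the scrambled shRNA. The experiments differ in vector, library set and evenness of coverage at once, which cannot be told apart, so levels were not tested between them.

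**Figure D5:**
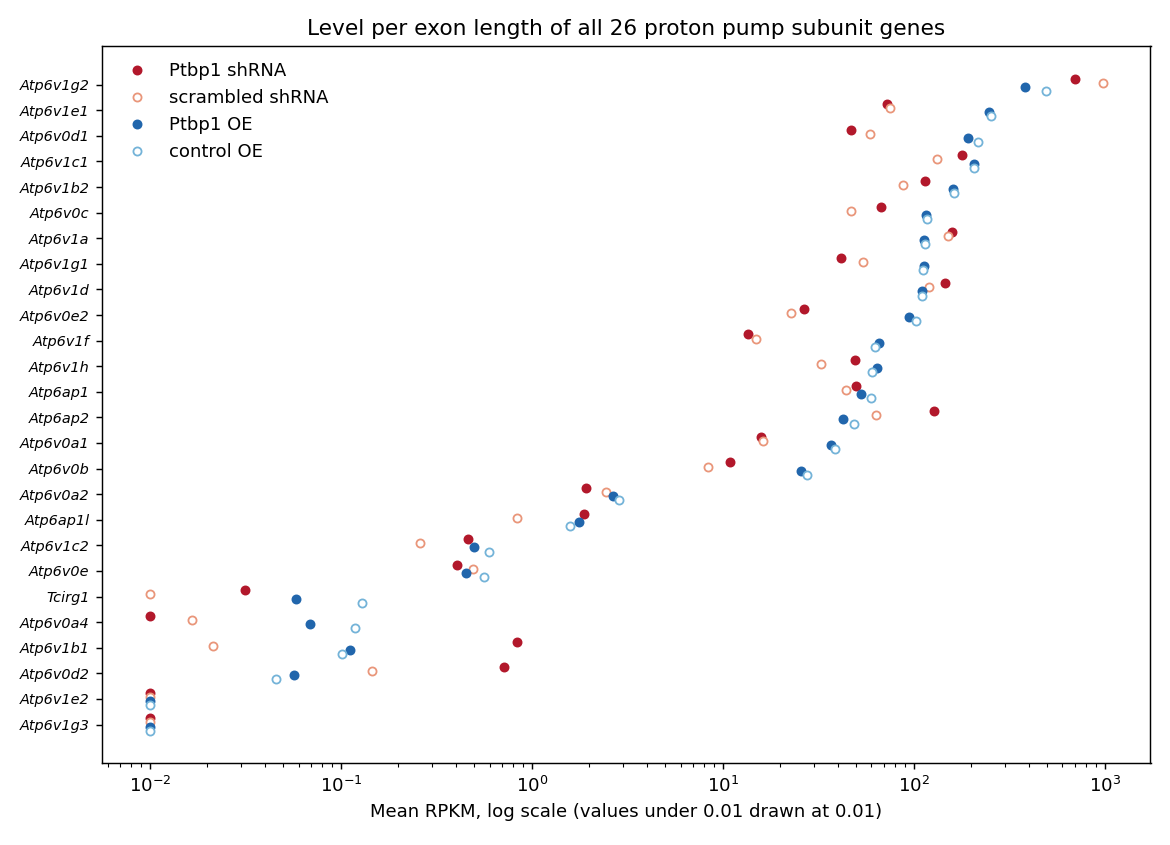
Mean RPKM (log axis) of the 26 subunit and accessory genes in the 4 groups, ordered by their mean in the control vector (control OE) group; filled points are Ptbp1 shRNA and Ptbp1 overexpression (OE), open points their controls. Atp6v1g2 is highest in all groups, and Atp6v1e2 and Atp6v1g3 are at or near 0.

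The other 16 subunit genes show which isoforms were counted in these libraries. Atp6v1g2, the neuronal form of stalk subunit G, had the highest RPKM of the pump genes, at 696 ± 217 with the Ptbp1 shRNA and 977 ± 38.2 with the scrambled shRNA. In overexpression it had 382 ± 29.8 RPKM with the Ptbp1 vector and 492 ± 80.8 RPKM with the control vector. Isoforms known mainly from kidney, testis and bone (Atp6v1b1, Atp6v1e2, Atp6v1g3, Atp6v0a4, Atp6v0d2 and Tcirg1) had group means of at most 0.840 RPKM.

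Of the 16 genes 10 were tested in silencing, 5 positive and 5 negative, with a median of 0.05 on the log2 scale, and 0 passed the test. In overexpression 12 were tested, 3 positive and 9 negative, with a median of -0.16, and again 0 passed. Atp6ap2, the accessory protein also known as the prorenin receptor, averaged 333 ± 124 CPM with the Ptbp1 shRNA and 166 ± 23.0 CPM with the scrambled shRNA (SD, n = 4 and 5). Its lowest Ptbp1 shRNA library, at 255 CPM, lay above its highest scrambled library, at 192 CPM (log2 fold change 1.00, SE 0.25, edgeR adjusted p = 0.163). Over all genes, 4.84% had groups without overlap in silencing. Atp6ap2 and Atp6v1g2 are named here for the smallest p of their list. Atp6v1g2 ranged over 941 to 2084 CPM with the Ptbp1 shRNA, against 2322 to 2589 CPM with the scrambled shRNA, without overlap (log2 fold change -0.49, SE 0.22, edgeR adjusted p = 0.432). The overexpression libraries had 884 to 1047 CPM with the Ptbp1 vector and 1046 to 1484 CPM with the control vector (log2 fold change -0.36, SE 0.10, edgeR adjusted p = 0.678). Its exons share 144 bases with the opposite-strand gene Nfkbil1, whose reads may not be told apart. Tcirg1, with the next smallest p in overexpression, had a log2 fold change of -1.06 (SE 0.63) at a mean of 0.260 CPM with the Ptbp1 vector and 0.578 CPM with the control vector.

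Genes that assemble or regulate the pump were measured beside it. Of the 11 matched, 10 were tested in each experiment. In silencing 7 were positive and 3 negative, 0 passed the test, and the median log2 fold change was 0.23. Dmxl2, a subunit of the rabconnectin complex that helps V1 and V0 to rejoin, averaged 653 ± 184 CPM with the Ptbp1 shRNA and 390 ± 85.1 CPM with the scrambled shRNA (log2 fold change 0.74, SE 0.24, edgeR adjusted p = 0.261). Oxr1, a TLDc-domain protein known to bind the pump, averaged 997 ± 257 CPM with the Ptbp1 shRNA and 1530 ± 173 CPM with the scrambled shRNA (log2 fold change -0.62, SE 0.20, edgeR adjusted p = 0.262). Its groups did not overlap, as was so for 4.84% of all genes in silencing. With the Ptbp1 vector 3 were positive and 7 negative, with a median of -0.06, and 0 passed. The smallest p-values there belonged to Vma21, a V0 assembly factor, at a log2 fold change of -0.16, and Rogdi, another rabconnectin subunit, at 0.11.

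Lysosomal genes and the nutrient sensors that sit on the pump numbered 19. In silencing 18 were tested, 6 positive and 12 negative, with a median of -0.18 on the log2 scale, and 0 passed. Rragc, a GTPase that recruits mTORC1 to the lysosome, averaged 11.1 CPM with the Ptbp1 shRNA and 39.3 CPM with the scrambled shRNA (log2 fold change -1.82, SE 0.64, edgeR adjusted p = 0.301). Slc38a9, a lysosomal arginine sensor, averaged 39.6 CPM with the Ptbp1 shRNA and 15.3 CPM with the scrambled shRNA (log2 fold change 1.37, SE 0.50, edgeR adjusted p = 0.313). Under overexpression all 19 were tested, 9 positive and 10 negative, with a median of -0.02 and 0 called. Lamtor2, a Ragulator subunit, had a log2 fold change of 0.19 there, and Tfe3, a transcription factor of lysosomal genes, 0.14.

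Transporters that use the proton gradient, such as those that fill synaptic vesicles, numbered 12, and all were tested. In silencing 4 were positive and 8 negative, with a median of -0.29 on the log2 scale, and 0 passed. The smallest p-values belonged to the chloride and proton exchangers Clcn3, at 0.59 (SE 0.29), and Clcn4, at -0.84 (SE 0.44). In overexpression 12 of 12 had negative values, from -0.24 to -0.06, with a median of -0.13, and 0 had an unadjusted p under 0.05. Over all genes the median was near 0 and 49.98% were positive. The 12 genes were counted in the same libraries, so their signs are not independent. The lowest there were Slc30a3, the vesicular zinc transporter, at -0.24 (SE 0.21), and Slc17a6, a vesicular glutamate transporter, at -0.21 (SE 0.20).

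Markers of cell types and regions were read beside these values, since pump genes are active in all cells. The summed level of 6 excitatory neuron markers ranged over 1395 to 2832 CPM with the Ptbp1 shRNA and 2879 to 4545 CPM with the scrambled shRNA, without overlap. In overexpression it was 2110 to 2970 CPM with the Ptbp1 vector and 2656 to 3138 CPM with the control vector. Of those markers 4 of 6 were negative in silencing, led by Camk2a at a log2 fold change of -0.89 (edgeR adjusted p = 0.237). In overexpression 3 of 6 were negative, with Camk2a at -0.17 and Nrn1 at -0.11. The 5 layer II markers summed to 279 to 571 CPM with the Ptbp1 shRNA and 310 to 549 CPM with the scrambled shRNA, and to 486 to 676 CPM with the Ptbp1 vector and 530 to 645 CPM with the control vector. Of these 4 of 5 were negative in each experiment, among them Cux1 at -0.66 in silencing and -0.12 in overexpression, Wfs1 at -0.51 in silencing, whereas Calb1 was at 0.30 in overexpression.

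The 5 hippocampus markers summed to 40.8 to 214.5 CPM with the Ptbp1 shRNA and 88.2 to 225 CPM with the scrambled shRNA, and to 43.8 to 64.9 CPM with the Ptbp1 vector and 30.9 to 61.0 CPM with the control vector. Tdo2, a dentate gyrus marker, averaged 0.0489 CPM with the Ptbp1 shRNA and 5.88 CPM with the scrambled shRNA, and Spink8 0.186 CPM with the Ptbp1 shRNA and 2.69 CPM with the scrambled shRNA. Prox1 and Zbtb20 had log2 fold changes of 0.69 and 0.22 in overexpression. Tdo2, Fibcd1 and Spink8 were at 0 in at least 1 Ptbp1 shRNA library, and Prox1, Tdo2 and Fibcd1 in at least 1 scrambled library. The 7 interneuron markers summed to 184 to 365 CPM with the Ptbp1 shRNA and 292 to 368 CPM with the scrambled shRNA, and to 200.1 to 355 CPM with the Ptbp1 vector and 195 to 351 CPM with the control vector. Their leading genes were Pvalb, at a log2 fold change of -3.92 (SE 2.33) in silencing and 0.38 in overexpression, and Sst, at -0.67 in silencing and -0.28 in overexpression. Pvalb averaged 0.191 ± 0.381 CPM with the Ptbp1 shRNA and 2.95 ± 6.03 CPM with the scrambled shRNA.

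Each list of glial or vessel markers summed to at most 170 CPM in any library. The 6 microglia markers summed to 0.0561 to 3.18 CPM with the Ptbp1 shRNA and 2.21 to 19.0 CPM with the scrambled shRNA, and to 7.29 to 11.5 CPM with the Ptbp1 vector and 5.56 to 8.23 CPM with the control vector. In silencing only 2 of these 6 markers had enough counts to be tested. Csf1r had a log2 fold change of -4.04 (SE 1.91) and P2ry12 of -2.21 (SE 1.52) there. Csf1r averaged 0.376 ± 0.494 CPM with the Ptbp1 shRNA and 6.28 ± 8.49 CPM with the scrambled shRNA. In overexpression P2ry12 was at 1.81 (edgeR adjusted p = 0.678) and Aif1 at 1.07. The 6 astrocyte markers summed to 12.9 to 29.3 CPM with the Ptbp1 shRNA and 10.1 to 36.7 CPM with the scrambled shRNA, and to 27.6 to 48.9 CPM with the Ptbp1 vector and 24 to 40.3 CPM with the control vector. Sox9 was at -2.59 (SE 1.66) and Gja1 at -2.71 (SE 1.81) in silencing, Sox9 at 0.61 and Gfap at 0.54 in overexpression. For 6 oligodendrocyte markers the sums were 61.6 to 118 CPM with the Ptbp1 shRNA and 84.3 to 132.5 CPM with the scrambled shRNA, and 139 to 170 CPM with the Ptbp1 vector and 132 to 149 CPM with the control vector, with Mbp at -0.23 in silencing and 0.18 in overexpression, Cnp at -0.13 in silencing and Olig2 at 0.67 in overexpression. Vessel markers summed to at most 17.7 CPM in any library, with Pecam1 at 0.47 in silencing and -0.82 in overexpression and Kdr at 0.55 in overexpression. None of the 8 marker lists held a called gene in either experiment. The part of these markers in the values of the pump genes was not tested.

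The genes whose levels followed the pump most closely across the 9 overexpression libraries were ranked by Pearson's r of log2 CPM with the mean standardized log2 CPM of the 10 genes. They were B4gat1 (r = 0.992), Galnt13 (r = 0.955), Cyb561 (r = 0.95), Rpn1 (r = 0.945) and Pigu (r = 0.943), given as a description over 9 libraries that share 1 experiment. These 5 were picked as the highest among the 16480 genes tested in overexpression, the 10 pump genes left out, and such picking raises r. Individual pump genes followed their own mean unequally, from 0.014 for Atp6v0d1 and 0.066 for Atp6v1d to 0.771 for Atp6v1c1 and 0.801 for Atp6ap1. The mean of the 10 includes the gene itself, which raises each of these values. Atp6v0d1 and Atp6v1d thus followed that mean least over these 9 libraries, which was not tested.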

How the data were processed

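The 10 genes, the gene lists and the alternatives were chosen with earlier results of these data known. The values are whole-number counts per Ensembl gene and per exon bin, deposited without normalization by the authors. STAR 2.5.3a, HTSeq and the mouse build mm10 are named, per the submitters' processing notes, with no role stated. Annotation release and strand use: not given in the sources used here. Of 39017 gene identifiers 37607 matched a symbol, and 112 of 114 list genes did. The 5 closing lines of each exon file, reads in no single bin, stayed out of library sizes and tests.

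Bin coordinates and exon lengths were rebuilt from GENCODE M21 (mm10). Bin numbers matched the files for all 10 genes. No exon base of Atp6v1h is shared with its opposite-strand neighbour Rgs20.

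The silencing and the overexpression counts were fitted separately (edgeR 4.0.16, R 4.3.3, filterByExpr, TMM, robust quasi-likelihood F test, Benjamini-Hochberg adjustment at 0.05 over all genes tested). Exon usage was tested with diffSpliceDGE. The difference between responses was fitted over all 18 libraries. Standard errors were taken from the log2 fold change and its F statistic. Usage of bin 007 is its count as a percent of the gene's bin counts, compared by exact permutation. Alternatives used limma 3.58.1 and DESeq2 1.42.0. The scripts were tested on simulated data.

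All 10 genes passed the filter on low counts in both experiments. Replicate numbers only name libraries. From each other list the text names the 2 genes with the smallest p in each experiment, then the 5 genes most like the mean of the 10, and of each gene the bin with the smallest p. One gene that this rule names is not reported here. Each library is 1 mouse. Wilson intervals and the limit of 3 counts cover counting error only.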

Additional observations from a re-analysis of the deposited data

Results flagged for a closer look

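Over bin 007 usage and the CPM of the 10 genes, Ptbp1 and Ptbp2 in each of the 4 groups, 52 sets of libraries were checked for 1 library far from the rest of its group, and chance alone flags about 1 set in 20. Among them 3 stood apart. Atp6v1h bin 007 usage in scrambled shRNA replicate 5 was 1.585%, against 0.0489% to 0.122% in the other 4 scrambled libraries, and the gap made up 0.952 of the group's range. Atp6v0c in Ptbp1 shRNA replicate 1 was lowest at 176.0 CPM, against 241 to 252 CPM in the other 3, a gap of 0.859 of the range. Atp6ap1 in scrambled shRNA replicate 4 was highest at 225.1 CPM, against 90.4 to 128 CPM in the other 4, a gap of 0.721 of the range.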

How the results depend on the processing

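No paired analysis was possible because replicate numbers only name libraries. In silencing the count of called genes was 0, but 11 without a filter on low counts, 426 with DESeq2, 69 with limma-voom and quality weights, 1775 with all 18 libraries sharing 1 spread, and 0 to 5 with 1 library left out (5 without Ptbp1 shRNA replicate 4). Of the 10 pump genes only Atp6v0c passed under any of these, with the shared spread (log2 fold change 0.53, adjusted p = 0.0497). In overexpression 7 genes were called, 40 with DESeq2, 0 with the shared spread and 6 to 9 with 1 library left out. The difference between responses had 40, 17 without a filter, 275 without the least evenly covered pair (added after seeing the data) and 1 to 174 with 1 library left out (174 without Ptbp1 shRNA replicate 4, 1 without control vector replicate 4 or Ptbp1 overexpression replicate 5). For silenced exon bins the count was 1, 3 with limma's diffSplice, 6 with a minimum of 10 counts, 0 without the least evenly covered pair and 0 to 3 with 1 library left out.

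Bin 007 usage in silencing differed by 0.636 points, by 16.1 as a percent of the adjoining bins (exact permutation p = 0.0317), by 2.37 on the log2 scale with a pseudocount of 0.5 (exact permutation p = 0.0794), by 0.936 points without scrambled replicate 5 (exact permutation p = 0.0286) and by 0.474 to 0.936 points over all single omissions. Scrambled replicate 5 was the only scrambled library to overlap the Ptbp1 shRNA group, so the exact permutation p of 0.0286 follows from its omission. In overexpression the difference was 0.687 points, 14.9 as a percent of the adjoining bins and 2.96 on the log2 scale. In silencing 4 genes near 0 and 2 bins changed sign. With 1 library left out, the log2 values ranged over -0.33 to 0.082 for Atp6v1e1, -0.56 to 0.17 for Atp6v0a1, -0.077 to 0.46 for Atp6ap1 and -0.066 to 0.17 for Atp6v1a. They ranged over -0.074 to 0.39 for Atp6v1b2 bin 025 and -0.043 to 0.31 for Atp6v0c bin 011. Without the uneven pair Atp6v1e1 was at 0.12, Atp6v0a1 at 0.35 and Atp6v0c bin 011 at -0.25. In overexpression the sign also changed with 1 library left out for Atp6v1a, Atp6v1b2, Atp6v1c1, Atp6v1d, Atp6v1e1, Atp6v0a1 and Atp6v0c. The log2 values there ranged over -0.20 to 0.029 for Atp6v0a1 and -0.093 to 0.11 for Atp6v0c. The cause was not tested. Depth limits bin 007: the control vector libraries held 0 to 8 counts.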
